A study of Homo sapiens with 11 samples.

Results

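Aldo-keto reductases are NADPH-dependent enzymes that reduce aldehydes and ketones to alcohols. The group described here was a named set of 9 human genes, AKR1A1, AKR1B1, AKR1B10, AKR1B15, AKR1C1, AKR1C2, AKR1C3, AKR1C4 and AKR7A2, found by symbol. Each stood at 1 locus among the 23608 gene symbols used here, and all 9 were among the 12506 genes tested. Their levels were read in 11 RNA-seq libraries of A549, an established cell line from a human lung adenocarcinoma. The cells had been kept in cigarette smoke condensate (CSC, smoke particulates collected and dissolved) or in the solvent DMSO alone. There were 3 libraries of CSC for 2 weeks, 3 of DMSO for 2 weeks, 3 of CSC for 48 hours and 2 of DMSO for 48 hours (replicates 2 and 3). The dose of CSC is labelled 20 µM, although a mixture has no molar concentration. A549 is 1 cell line, and nothing in the labels ties a replicate to its own culture. The p-values therefore reflect variation among the libraries, which may be technical.

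In the lung, these enzymes clear reactive aldehydes and ketones, including those of tobacco smoke and of lipid peroxidation. Members of the AKR1C subfamily also oxidise dihydrodiols of polycyclic aromatic hydrocarbons to reactive quinones, and they reduce a carbonyl group of a tobacco nitrosamine. Several of the genes are known targets of NRF2, the transcription factor that answers oxidative stress. A549 cells carry a KEAP1 mutation that leaves NRF2 active, and the high AKR1B10 and AKR1C levels of the line are well known.

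The AKR1C genes are so alike that reads of one can be counted for another, which bears on every value of theirs below. The coding sequences of AKR1C1 and AKR1C2 were 98.0% identical, those of AKR1C1 and AKR1C3 91.4%, and that of AKR1C4 was 87.8% to 88.5% identical to the other three. Their first 60 coding bases are shown to let the likeness be seen. They were read from GRCh37, the build of the deposited values (hg19), at chr10:5005637-5005696 (plus strand) for AKR1C1, chr10:5045968-5046027 (minus) for AKR1C2, chr10:5136637-5136696 (plus) for AKR1C3 and chr10:5238831-5238890 (plus) for AKR1C4. Capitals mark the bases that differ from AKR1C1, of which there were 1 in AKR1C2, 8 in AKR1C3 and 9 in AKR1C4.
AKR1C1: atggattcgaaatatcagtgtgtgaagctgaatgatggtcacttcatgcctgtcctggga
AKR1C2: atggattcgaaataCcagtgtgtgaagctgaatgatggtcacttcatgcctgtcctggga
AKR1C3: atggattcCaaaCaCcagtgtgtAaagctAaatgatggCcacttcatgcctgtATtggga
AKR1C4: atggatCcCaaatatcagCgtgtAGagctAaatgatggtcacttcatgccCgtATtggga
Over 1 annotated transcript per gene, 47.3% of the windows of 50 bases in AKR1C2 also occurred, letter for letter, in another member. The share was 22.6% in AKR1C1, 18.7% in AKR1C3 and 9.80% in AKR1C4. These shares depend on transcript length, which was 6543 bases for AKR1C1, 3215 for AKR1C2, 1186 for AKR1C3 and 1192 for AKR1C4. The deposited AKR1C1 locus ended at 5020158, short of the annotated end at 5025475. The shares therefore do not rank the genes by how far their deposited values mix. AKR1B10 and AKR1B15, whose coding sequences were 93.5% identical, shared 11.3% and 11.2% of their windows. AKR1A1, AKR1B1 and AKR7A2 shared none with another member.

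The genes of each subfamily lie close together. In GENCODE v44 on GRCh37, AKR1C1 (positions 5005445 to 5025475), AKR1C2 (5029967 to 5060223), AKR1C3 (5077546 to 5149878) and AKR1C4 (5237425 to 5260912) follow each other on chromosome 10. AKR1B1 (134127108 to 134144036), AKR1B10 (134212319 to 134226164) and AKR1B15 (134233862 to 134264627) do so on chromosome 7. AKR1A1 (46016215 to 46035721) and AKR7A2 (19630459 to 19638638) both lie on chromosome 1, far apart.

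**Figure D1:**
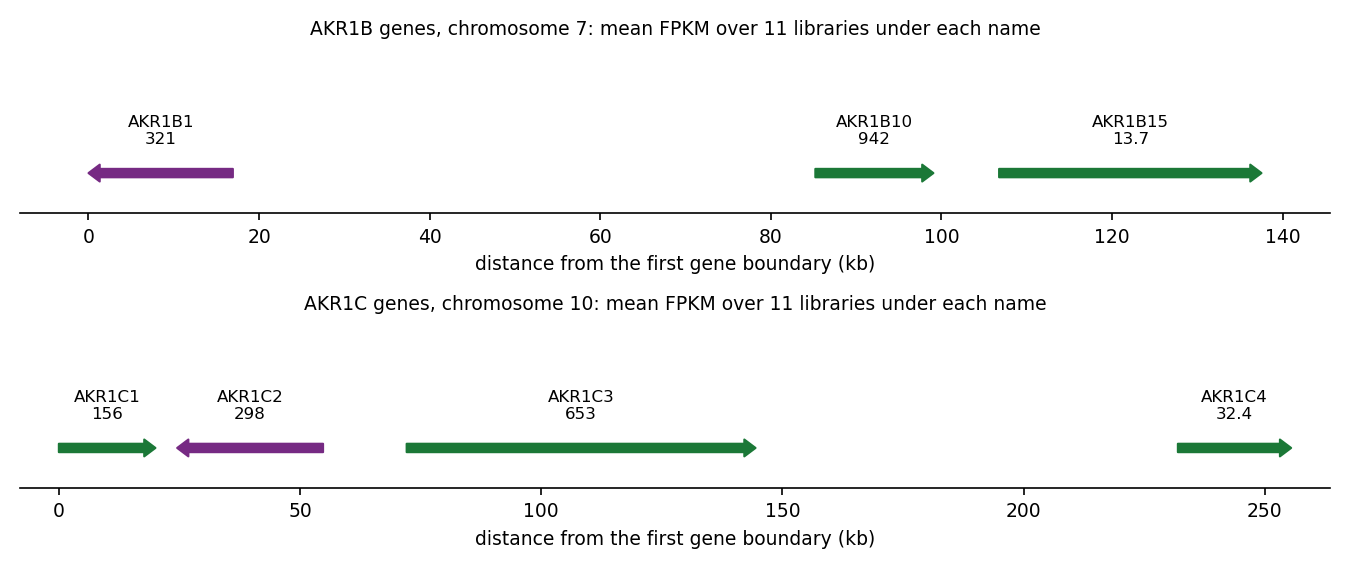
The AKR1B genes on chromosome 7 and the AKR1C genes on chromosome 10, drawn to scale in kilobases from the first gene boundary, green for the plus strand and purple for the minus strand, arrowheads at the 3′ end. The number under each name is the mean FPKM over 11 libraries. Neighbours differ widely in level, with AKR1B10 at 942 beside AKR1B15 at 13.7.

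The 150 bases before the annotated starts of the AKR1C genes are shown, from RefSeq on GRCh38.p14. The AKR1C values below moved together, but these genes share reads, and the part of the promoter sequences was not tested. The windows are chr10:4963265-4963414 (plus strand) for AKR1C1, chr10:5003858-5004007 (minus) for AKR1C2, chr10:5048631-5048780 and chr10:5094264-5094413 (both plus) for 2 starts of AKR1C3, and chr10:5196687-5196836 (plus) for AKR1C4. Capitals mark the CCAAT box, a common promoter element, which here reads ATTGG because it lies on the other strand.
AKR1C1: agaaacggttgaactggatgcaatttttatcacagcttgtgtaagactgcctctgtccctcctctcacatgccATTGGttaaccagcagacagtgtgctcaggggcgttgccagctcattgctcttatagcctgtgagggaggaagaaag
AKR1C2: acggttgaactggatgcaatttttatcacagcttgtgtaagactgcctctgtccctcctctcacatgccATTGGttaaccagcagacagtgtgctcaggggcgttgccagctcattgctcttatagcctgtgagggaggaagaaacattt
AKR1C3, upstream start: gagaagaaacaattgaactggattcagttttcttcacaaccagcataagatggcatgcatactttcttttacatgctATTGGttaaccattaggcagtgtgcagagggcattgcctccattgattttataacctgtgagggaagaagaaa
AKR1C3, downstream start: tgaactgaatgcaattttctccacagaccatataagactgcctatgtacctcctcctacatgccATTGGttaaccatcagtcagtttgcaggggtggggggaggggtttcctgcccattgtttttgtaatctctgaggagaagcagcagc
AKR1C4: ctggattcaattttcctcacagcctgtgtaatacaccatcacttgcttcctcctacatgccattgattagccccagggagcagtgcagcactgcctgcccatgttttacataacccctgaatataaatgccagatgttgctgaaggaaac
The box lay 77 bases before the start in AKR1C1, 81 in AKR1C2, and 73 and 86 in the windows of AKR1C3. These letters were not in the window of AKR1C4. On both strands, CCAAT occurs in 34.6% of 35116 RefSeq promoter windows of 300 bases. Over such windows AKR1C1 and AKR1C2 were 98.6% identical (288 of 292 aligned bases), and AKR1C1 and AKR1C4 69.6% identical. The letters TGACNNNGC, the core of the antioxidant response element that NRF2 binds, occur in 13.4% of the windows. They were not in the AKR1C, AKR1A1 or AKR1B1 windows, and were found 3 times in each AKR7A2 window. GCGTG, the core to which the aryl hydrocarbon receptor binds, occurs in 36.5% and was found once in each AKR7A2 and AKR1B1 window and in none of AKR1C or AKR1A1. TGANTCA, the site of AP-1, occurs in 7.71% and was in no member's window. Of the 9 genes, 7 had a window, and these matches describe letters in a short window only. The windows of AKR1B1 also held a CCAAT box.

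All values are FPKM as the authors deposited them (fragments per kilobase of transcript, scaled to the mapped fragments), which allows levels to be compared between genes. A library's FPKM added up to 338500 at the lowest and 484100 at the highest. Depth in reads is unknown, but the width of the deposited bounds gave CSC 2 weeks replicate 2 a relative depth of 2.67, with the other 10 libraries at 1 to 1.37. No 2 libraries held identical values. Of 7 epithelial markers, 6 stood at an FPKM of at least 1 in every library. Of 8 markers of the alveolar type II cell, the cell A549 is usually likened to, 7 stayed below 1 in every library, so the libraries did not show that cell's signature.

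The 9 genes made up between 0.479% and 0.753% of the summed FPKM of a library. AKR1B10, which reduces retinaldehyde and lipid aldehydes, was highest with a mean of 942 over the 11 libraries, rank 24 of the 12506 tested genes. AKR1C3, which makes testosterone from androstenedione and also prostaglandin F, followed with 653 (rank 46). AKR1B1 (aldose reductase, the entry to the sorbitol pathway) averaged 321 and AKR1C2 (which inactivates dihydrotestosterone) 298. That pair did not differ in order beyond the spread, since AKR1B1 was above AKR1C2 in 6 of 11 libraries. AKR1C1, which inactivates progesterone, averaged 156. Far lower were AKR1C4 (the bile acid and steroid enzyme of liver) at 32.4, AKR1A1 (aldehyde reductase) at 17.1, AKR1B15 at 13.7 and AKR7A2 (which reduces succinic semialdehyde and aflatoxin dialdehyde) at 7.48. All other neighbours in this order kept it in 11 of 11 libraries. The FPKM of AKR1B10 and AKR1B1 lay outside its own deposited bounds in all 11 libraries, and that of AKR1C1 in 10. For AKR1C4 it lay outside in 2, CSC 2 weeks replicates 2 and 3. Those bounds were therefore not used as errors.

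**Figure D2:**
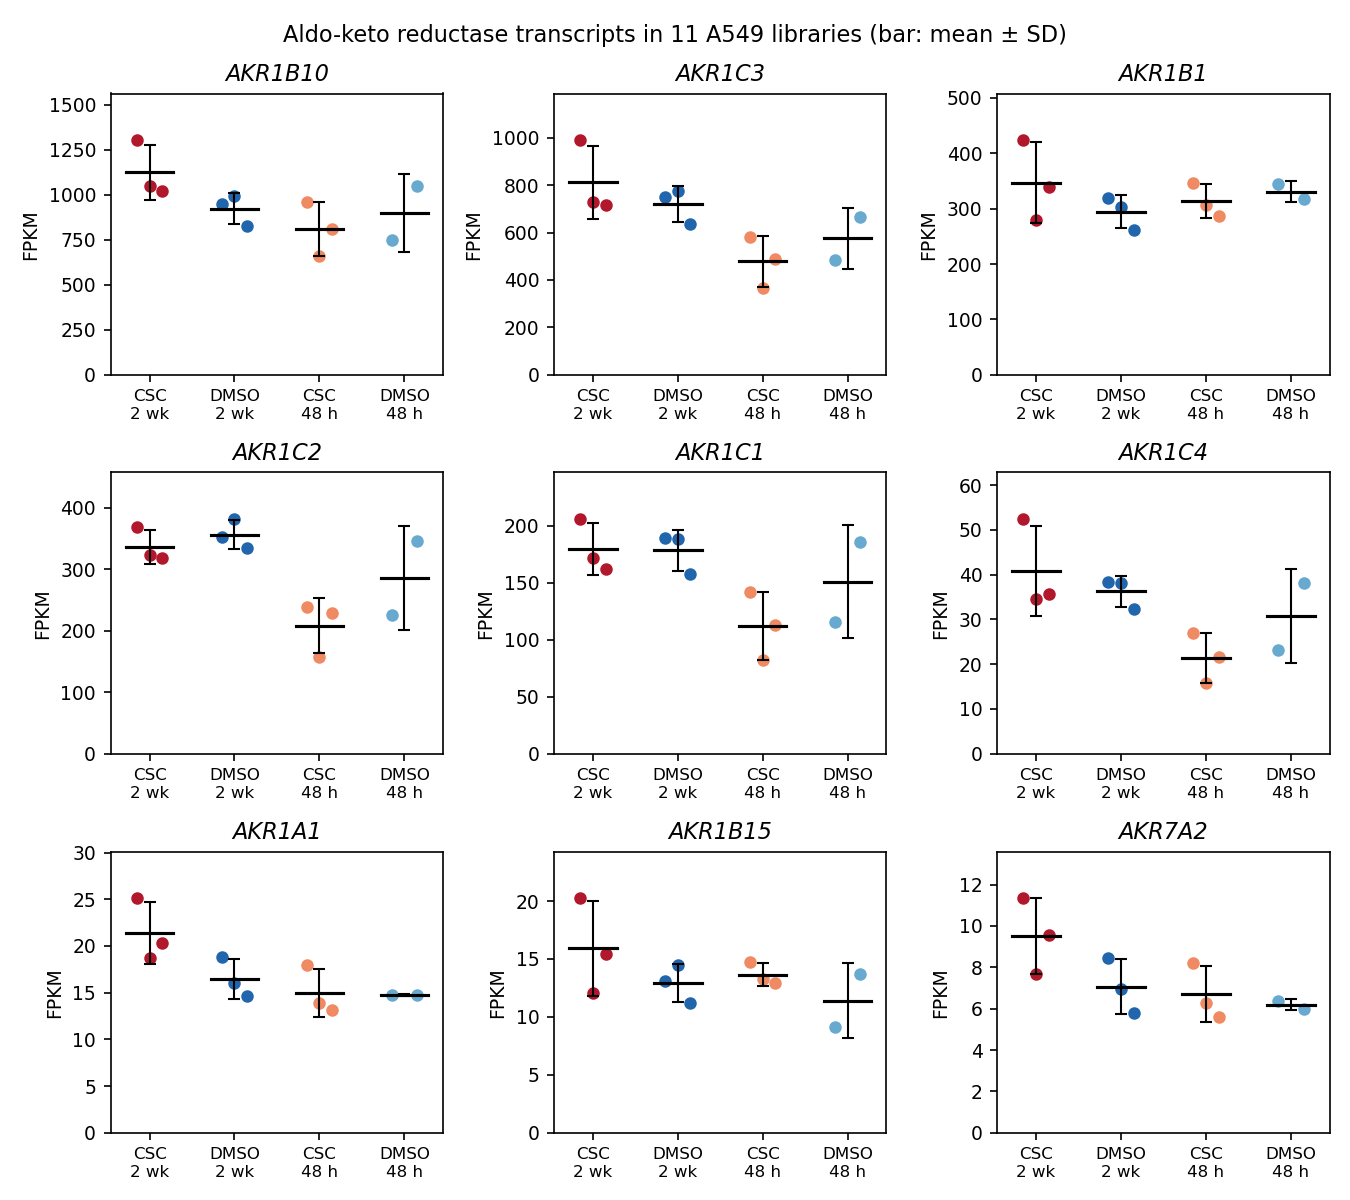
FPKM of each aldo-keto reductase gene (linear axes from 0, one panel per gene, highest gene first) in the 11 libraries, with points for libraries and bars for mean ± SD (n = 3 for CSC 2 weeks, DMSO 2 weeks and CSC 48 hours, n = 2 for DMSO 48 hours). The 3 CSC 48 hours libraries lie below the 3 CSC 2 weeks libraries for AKR1A1, AKR1B10 and AKR1C1 to AKR1C4, as in 28.4% of all tested genes. The AKR1C genes share reads.

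The question put first was whether 2 weeks of CSC changed these genes. None of the 9 passed the test (limma, adjusted p under 0.05), where 5.41% of all tested genes did, 3.01% higher and 2.4% lower. Of the members, 8 had a positive log2 change and AKR1C2 a negative one, with a median of 0.22 against a median of 0.09 over all genes. With median-of-ratios scaling and with a common sum 7 were positive, with medians of 0.12 and 0.077 against 0.0071 and -0.034 over all genes. With quantile normalization the direction turned, with 4 of 9 positive and a median of -0.033 against 0.020. Of the calls over all genes, 55.6% were higher in CSC with the FPKM as deposited, against 38.6%, 35.2% and 42.4% with median-of-ratios scaling, a common sum and quantile normalization. In bulk libraries, fewer cells of a kind and less RNA per cell cannot be told apart. Sums of some marker lists also differed between CSC and DMSO. The epithelial markers summed to 2937 to 4028 FPKM in CSC and 4272 to 4917 in DMSO at 2 weeks, and to 2131 to 2447 in CSC and 3021 to 3082 in DMSO at 48 hours, with no overlap at either time. Such sums weigh the most abundant markers most. Of the 7 epithelial markers, 1 had a positive log2 change at 2 weeks and 3 at 48 hours, and none passed at either time. At 2 weeks the fibroblast markers summed to 7.44 to 9.85 in CSC and 11.3 to 12.1 in DMSO, and the leukocyte markers to 8.71 to 11.7 in CSC and at most 8.27 in DMSO. At 48 hours the sums of these last lists overlapped between CSC and DMSO. Their part in the comparisons of CSC with DMSO was not tested.

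AKR1B10 stood at 1301, 1049.5 and 1018 in CSC for 2 weeks, against 946, 992 and 828 in DMSO for 2 weeks. All 3 CSC libraries were above all 3 DMSO libraries, as in 20.3% of the tested genes. Its log2 change was 0.28 ± 0.18 (SE, adjusted p = 0.362). The groups averaged 1123 ± 155 in CSC and 922 ± 84.4 in DMSO (SD, n = 3 each). AKR1B1 stood at 423, 279 and 339.5 in CSC, against 319, 303 and 262 in DMSO. The groups overlapped, since replicate 2 of CSC was below 2 of the DMSO libraries. Its log2 change was 0.22 ± 0.16 (adjusted p = 0.402). AKR1B15, a close relative of AKR1B10, had 20.2, 12.1 and 15.5 in CSC, against 13.1, 14.5 and 11.2 in DMSO, also overlapping (0.27 ± 0.18, adjusted p = 0.379). AKR1B15 was between 1.15% and 2.01% of AKR1B10 in every library, and the part of AKR1B10 reads in its value was not tested.

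The AKR1C genes had the smallest changes at 2 weeks. AKR1C3 had 989, 728 and 717 in CSC, against 750.4, 775 and 634 in DMSO. Replicate 1 of CSC was the highest, and the other two lay within the DMSO range. Its log2 change was 0.16 ± 0.20 (adjusted p = 0.647). AKR1C2 had 368, 324 and 318 in CSC, against 353, 381 and 335 in DMSO, overlapping (-0.08 ± 0.19, adjusted p = 0.812). AKR1C1 had 206, 172 and 162 in CSC, against 189, 189 and 157.5 in DMSO (0.01 ± 0.21, 0.981). AKR1C4 had 52.3, 34.5 and 35.6 in CSC, against 38.4, 38.1 and 32.3 in DMSO (0.15 ± 0.22, 0.714). In AKR1C1 and AKR1C4, as in AKR1C3, replicate 1 of CSC stood above every DMSO library and the other two did not. These values do not show that the levels were equal. The 95% intervals of the 4 log2 changes ran from -0.48 for AKR1C2 at the low end to 0.63 for AKR1C4 at the high end.

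AKR7A2 and AKR1A1 had the largest changes at 2 weeks. AKR7A2 had 11.3, 7.69 and 9.56 in CSC for 2 weeks, against 8.45, 6.97 and 5.78 in DMSO for 2 weeks. The lowest CSC library was below the highest DMSO library. The change was 0.41 ± 0.17, with an unadjusted p of 0.0342 and an adjusted p of 0.168. AKR1A1 had 25.1, 18.7 and 20.3 in CSC, against 18.8, 16.0 and 14.6 in DMSO. Replicate 2 of CSC was just below replicate 1 of DMSO. Its change was 0.36 ± 0.14 (unadjusted p = 0.0268, adjusted p = 0.151). An unadjusted p under 0.05 was found for 3075 of the 12506 genes in this comparison.

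After 48 hours of CSC, again none of the 9 passed, where 0.288% of all tested genes did. None had an unadjusted p under 0.05 (limma), which 1062 of all genes had. Here 3 changes were positive and 6 negative, with a median of -0.14 against 0.00 over all genes. AKR1C2 had 239, 157 and 229 in CSC for 48 hours, against 225 and 346 in DMSO for 48 hours. The DMSO pair was far apart, with 2 CSC libraries between them and 1 below both. Its log2 change was -0.45 ± 0.21 (adjusted p = 0.597), with a 95% interval from -0.89 to 0.0043. AKR1C4 had 27.0, 15.8 and 21.5 in CSC, against 23.3 and 38.1 in DMSO, a change of -0.50 ± 0.25 (adjusted p = 0.641). Its CSC replicate 2 was the lowest of all 11 libraries. AKR1C1 had 142, 82.0 and 113 in CSC, against 116 and 186 in DMSO (-0.42 ± 0.23, 0.703). AKR1C3 had 579.8, 367 and 488 in CSC, against 485 and 667 in DMSO (-0.27 ± 0.22, 0.832). For all 4 genes the groups overlapped.

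The other 5 genes had log2 changes between -0.14 and 0.27 at 48 hours. AKR1B10 had 960.2, 659 and 810.2 in CSC, against 746 and 1049.5 in DMSO (-0.14 ± 0.21, adjusted p = 0.929). Both groups spread widely, and they overlapped. AKR1B1 had 347, 307 and 287 in CSC, against 344 and 317 in DMSO (-0.08 ± 0.18, 0.961). AKR1A1 had 17.9, 13.9 and 13.2 in CSC, against 14.7 and 14.8 in DMSO (0.01 ± 0.16, 0.992). In both genes the DMSO pair lay inside the CSC range. AKR7A2 averaged 6.70 ± 1.34 in CSC (SD, n = 3) and 6.19 ± 0.270 in DMSO (n = 2), overlapping (0.09 ± 0.19, 0.960). AKR1B15 had 14.7, 13.2 and 12.9 in CSC, against 9.11 and 13.7 in DMSO (0.27 ± 0.21, 0.821). In some libraries most members deviated the same way. With 2 DMSO libraries, deviations from their mean are equal and opposite, so they give 1 value. The median member of DMSO replicate 3 lay 0.25 log2 units above that mean, with 7 of 9 members above it. In CSC replicate 2 all 9 members lay below their group mean and in CSC replicate 1 all 9 above it. In CSC replicate 3, 5 lay above it. Leaving out 1 DMSO library could turn a sign: AKR1B10 was at 0.10 without DMSO replicate 3.

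**Figure D3:**
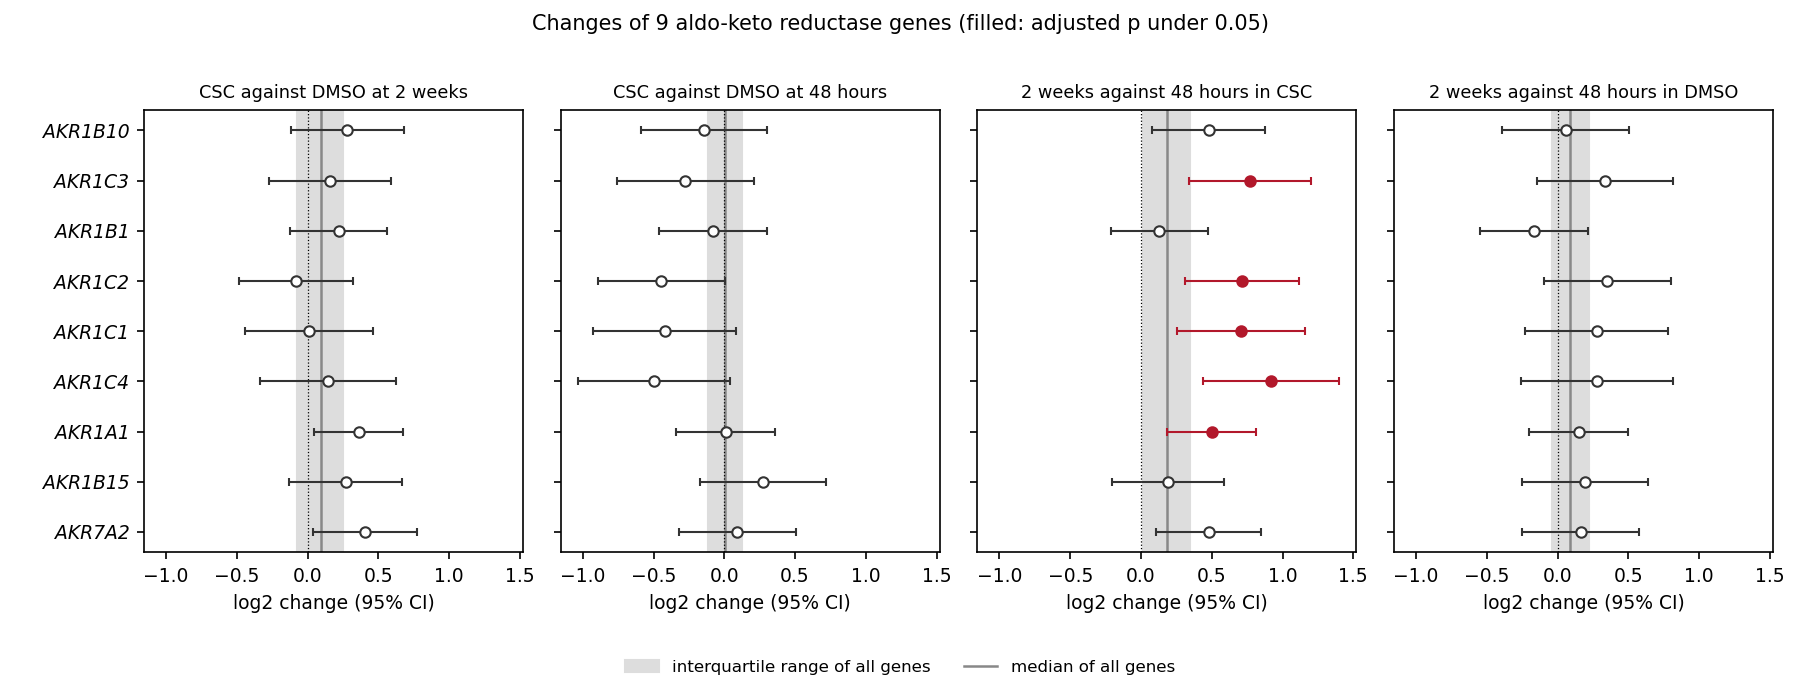
Log2 changes of the 9 genes with 95% confidence intervals in 4 comparisons, on the log2(FPKM + 0.5) scale. Filled red points passed an adjusted p of 0.05, grey bands and lines give the interquartile range and median of all 12506 tested genes. Passing points appear for AKR1A1 and AKR1C1 to AKR1C4 in the comparison of 2 weeks with 48 hours of CSC, and in no other panel.

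The CSC effect at 2 weeks minus that at 48 hours was tested directly. None of the 9 passed, where 0.04% of all tested genes did. AKR1C4 had the largest difference, 0.64 ± 0.33 on the log2 scale (adjusted p = 0.709, the smallest among the members). The difference was 0.44 ± 0.30 for AKR1C3, 0.43 ± 0.31 for AKR1C1, 0.42 ± 0.28 for AKR1B10 and -0.0025 ± 0.28 for AKR1B15. The 95% intervals of the 9 genes ran from -0.60 to 1.36. The effects at the 2 times were thus not shown to differ for any member. The same contrast is also the change with time in CSC minus the change with time in DMSO.

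The AKR1C genes were higher at 2 weeks than at 48 hours of CSC. In all, 5 of the 9 genes passed, all higher at 2 weeks, where 12.3% of all tested genes were called higher and 1.38% lower (13.7% in all). The AKR1C genes among them share reads, so their calls are not separate results. The part of reads from the other AKR1C genes in the value of AKR1C4 was not tested. The median change was 0.50 for the members and 0.19 for all genes. AKR1C4, lowest of the subfamily, had 52.3, 34.5 and 35.6 in CSC for 2 weeks, against 27.0, 15.8 and 21.5 in CSC for 48 hours. All 3 libraries of 2 weeks were above all 3 of 48 hours, as in 28.4% of tested genes. Its log2 change was 0.92 ± 0.22 (adjusted p = 0.0261). The means were 40.8 ± 9.99 at 2 weeks and 21.4 ± 5.58 at 48 hours (SD, n = 3 each), a ratio of 1.90.

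AKR1C3 had 989, 728 and 717 at 2 weeks, against 579.8, 367 and 488 at 48 hours of CSC. The groups did not overlap, and the change was 0.77 ± 0.20 (adjusted p = 0.0310). AKR1C2 had 368, 324 and 318 at 2 weeks, against 239, 157 and 229 at 48 hours, again with no overlap (0.71 ± 0.19, adjusted p = 0.0320). AKR1C1 had 206, 172 and 162 at 2 weeks, against 142, 82.0 and 113 at 48 hours (0.71 ± 0.21, adjusted p = 0.0444). The lowest library of 2 weeks stood above the highest of 48 hours. AKR1A1, the only passing gene outside the AKR1C subfamily, had 25.1, 18.7 and 20.3 at 2 weeks, against 17.9, 13.9 and 13.2 at 48 hours (0.50 ± 0.14, adjusted p = 0.0417).

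The other 4 members did not pass. AKR1B10 averaged 1123 ± 155 at 2 weeks and 809.8 ± 151 at 48 hours of CSC (SD, n = 3 each). Its libraries did not overlap either, which makes 6 of 9 members with that property, and its change was 0.48 ± 0.18 (adjusted p = 0.0915). AKR7A2 had 11.3, 7.69 and 9.56 at 2 weeks, against 8.20, 6.29 and 5.61 at 48 hours (0.48 ± 0.17, adjusted p = 0.0749). The log2 change was 0.19 ± 0.18 (0.473) for AKR1B15 and 0.13 ± 0.16 (0.575) for AKR1B1. AKR1B1, the polyol enzyme, thus lay near the median of all genes, which was 0.19.

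The calls of this comparison depend on the scaling. With median-of-ratios scaling, scaling to a common sum, or quantile normalization, the median of all genes moved to 0.02, -0.09 and 0.01 from 0.19, and 0 of the 9 members passed in each. Genes called over the whole table were 1536 higher and 172 lower with the FPKM as deposited, against 186 and 243, 85 and 455, and 123 and 201 under those 3 scalings. AKR1C4 then had a log2 change of 0.74 (adjusted p = 0.0714), 0.62 (0.0854) and 0.66 (0.117), and AKR1C3 of 0.59 (0.0892), 0.47 (0.112) and 0.30 (0.382). Relative to the median of all genes, the 4 AKR1C genes were higher by 0.52 to 0.73 as deposited. Under quantile normalization that span was 0.28 to 0.65. AKR1B1 turned negative under all 3, at -0.05, -0.18 and -0.31.

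Single libraries also decide the count. Without CSC 48 hours replicate 2, or without CSC 2 weeks replicate 1, no member passed. It was 1 without DMSO 2 weeks replicate 2 or CSC 2 weeks replicate 3, 2 without DMSO 2 weeks replicate 1, and 3 without CSC 48 hours replicate 3. In CSC 48 hours replicate 2 all 9 members lay below their group mean, and in CSC 2 weeks replicate 1 all 9 lay above it. CSC 2 weeks replicate 1 also had the highest summed FPKM, 484100. The summed FPKM ran from 387900 to 484100 in CSC for 2 weeks and from 338500 to 353600 in CSC for 48 hours. With the libraries scaled to a common sum, as given above, 0 of the 9 members passed and AKR1C4 changed by 0.62. What set the sums apart was not tested. Marker sums moved with this comparison too, though not every marker did. Among the 7 epithelial markers 4 had a positive log2 change, and KRT8 and KRT18 passed as higher at 2 weeks. The 7 epithelial markers summed to 2937 to 4028 FPKM at 2 weeks and 2131 to 2447 at 48 hours of CSC, the 6 leukocyte markers to 8.71 to 11.7 at 2 weeks and 5.89 to 6.74 at 48 hours, and the 7 fibroblast markers to 7.44 to 9.85 at 2 weeks and 4.17 to 5.46 at 48 hours. Of the leukocyte markers 3, and of the fibroblast markers 6, stayed below 1 FPKM in every library. Among the tested genes were 2 leukocyte markers, of which CD14 passed as higher, and 1 fibroblast marker, COL1A1, which passed as higher too. The labels name A549 alone, and the part of these markers in the result was not tested.

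**Figure D4:**
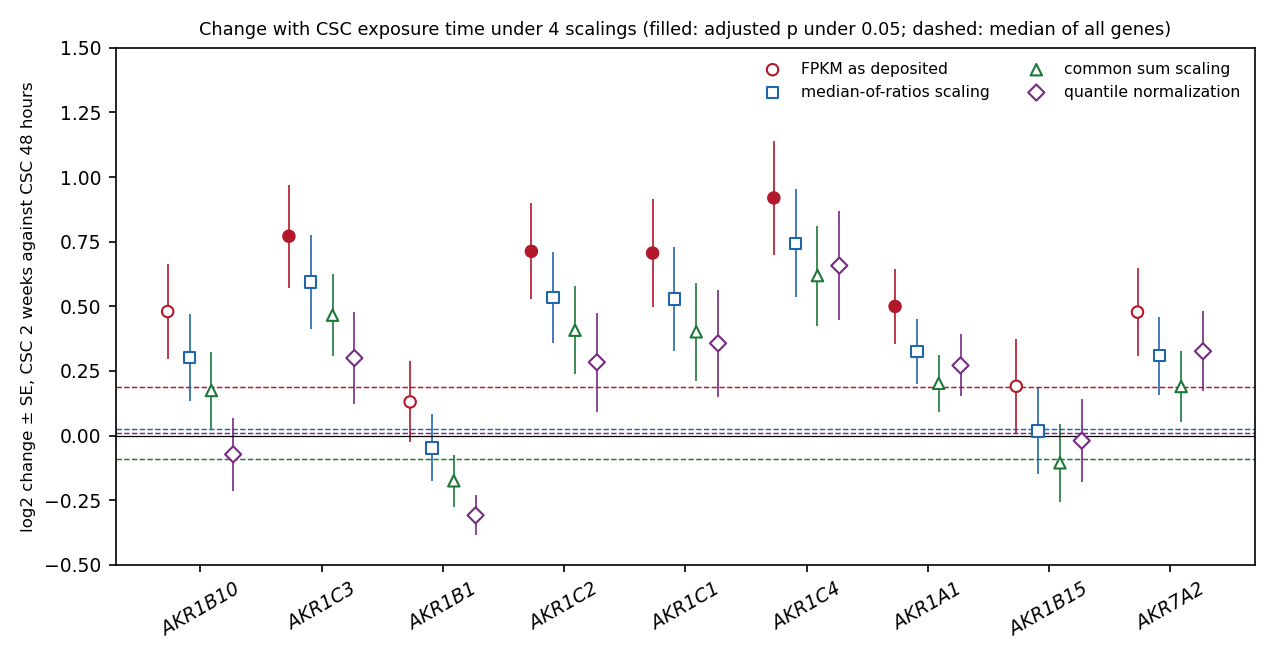
Log2 change ± SE of each gene, CSC 2 weeks against CSC 48 hours, under 4 scalings of the libraries. Filled symbols passed an adjusted p of 0.05, dashed lines give each scaling's median of all genes in its colour. AKR1C1 to AKR1C4 lie above the dashed line of their own scaling in every case, while filled symbols appear with the FPKM as deposited alone.

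In DMSO, the change between 48 hours and 2 weeks had the same sign for most members but passed for none, where 0.768% of all tested genes passed. AKR1C3 had 750.4, 775 and 634 at 2 weeks of DMSO, against 485 and 667 at 48 hours. The groups overlapped, and the change was 0.33 ± 0.22 (adjusted p = 0.582). The log2 change was 0.35 ± 0.21 (0.526) for AKR1C2, 0.28 ± 0.23 (0.689) for AKR1C1 and 0.28 ± 0.25 (0.710) for AKR1C4. It was 0.06 ± 0.21 (0.940) for AKR1B10 and -0.17 ± 0.18 (0.755) for AKR1B1, the only negative one. DMSO for 48 hours has 2 libraries, and its replicate 3 was as high as libraries of 2 weeks for the AKR1C genes. The rise with time in CSC was therefore not shown to exceed that in DMSO, as the difference tested above states.

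Since reads may be split between the AKR1C paralogs in any way, their levels were also summed. The summed FPKM of AKR1C1 to AKR1C4 was 1369 ± 214 in CSC for 2 weeks (SD, n = 3) and 1291 ± 117 in DMSO for 2 weeks (n = 3). It was 820.2 ± 185 in CSC for 48 hours (n = 3) and 1043 ± 274 in DMSO for 48 hours (n = 2). The ratio of means was 1.06 for CSC over DMSO at 2 weeks, 0.786 at 48 hours, 1.67 for 2 weeks over 48 hours in CSC and 1.24 in DMSO. Only the libraries of the third ratio did not overlap. The split between the paralogs varied little, with AKR1C3 at 53.9% to 61.2% of the sum, AKR1C2 at 22.8% to 28.9%, AKR1C1 at 12.7% to 15.1% and AKR1C4 at 2.53% to 3.24%.

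Ratios within a library are not altered by multiplying it by 1 factor, but quantile normalization does alter them. A pair of such ratios of the FPKM as deposited were singled out after their values were seen and are described with no test. AKR1C3 took 61.2%, 57.9% and 58.2% of the AKR1C sum in CSC for 2 weeks, against 56.4%, 56.0% and 54.7% in DMSO for 2 weeks. At 48 hours it took 58.7%, 59.0% and 57.3% in CSC, against 57.1% and 53.9% in DMSO. The CSC libraries were above the DMSO libraries at both times, by little at 48 hours. At 2 weeks the log2 changes of AKR1C3 and AKR1C1 were 0.16 and 0.01 with the FPKM as deposited, against -0.21 and -0.12 with quantile normalization. AKR1B10 over AKR1C3 was 1.32, 1.44 and 1.42 in CSC for 2 weeks and 1.26, 1.28 and 1.31 in DMSO for 2 weeks. It was 1.66, 1.79 and 1.66 in CSC for 48 hours and 1.54 and 1.57 in DMSO for 48 hours. All 6 libraries of 2 weeks lay below all 5 of 48 hours in this ratio, in both treatments. How often ratios of other genes separate in this way was not counted, for this ratio or for the AKR1C3 share. Both also rest on how reads were split between the AKR1C paralogs.

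**Figure D5:**
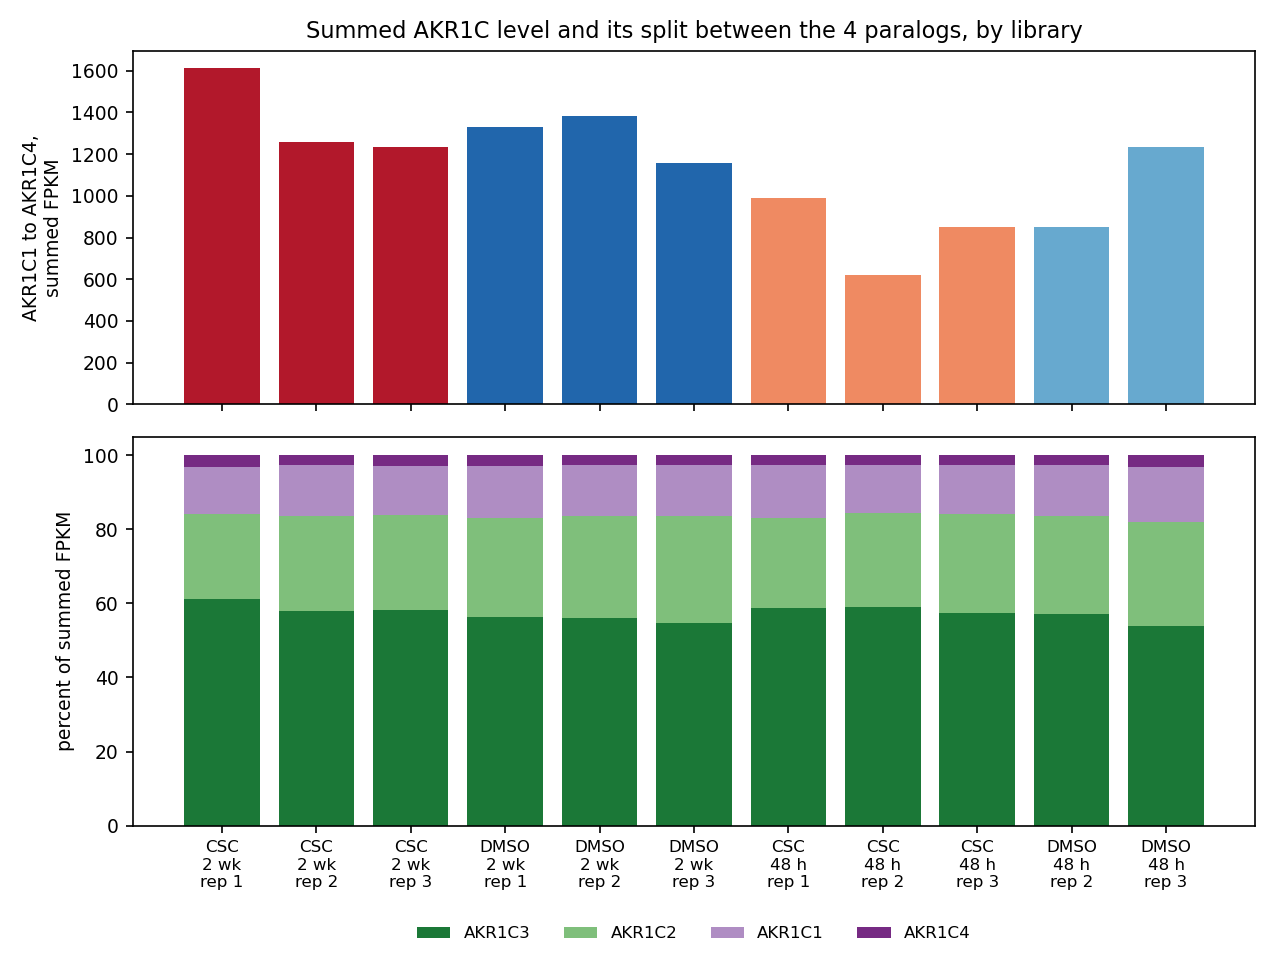
Summed FPKM of AKR1C1 to AKR1C4 by library (upper bars, from 0, coloured by group) and the percent of that sum given to each paralog (lower stacked bars). The sum is lowest in CSC 48 hours replicate 2, at 622, and highest in CSC 2 weeks replicate 1, at 1615, while AKR1C3 stays between 53.9% and 61.2%.

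The members varied more between replicates than most genes, at the 60.4th (AKR1A1) to 92.2nd (AKR1C4) percentile. Their residual SD on the log2 scale ran from 0.19 for AKR1A1 to 0.33 for AKR1C4, against a median of 0.17 over all tested genes. Over the 11 libraries AKR1C4 varied 3.31-fold, AKR1C3 2.69-fold and AKR1B1, the steadiest, 1.62-fold. The genes most like each subfamily's highest member in log2 FPKM over 11 libraries are given as a description, since points share library and depth. For AKR1C3 they were COX7A2 (Pearson r = 0.98, Spearman rho = 0.94), DIP2B (0.97 and 0.93) and DCAF6 (0.96 and 0.95), with 84 of 12465 genes above 0.9. For AKR1B10 they were UQCR10 (0.94 and 0.92), PIR (0.94 and 0.94) and EPB49 (0.94 and 0.83), with 33 above 0.9. AKR1A1 was most like FLOT2 (0.98 and 0.97), GIPC1 (0.97 and 0.89) and EHMT1 (0.97 and 0.99), with 375 above 0.9. AKR7A2 was most like EMC9 (0.98 and 0.94), PIP4K2B (0.98 and 0.96) and APRT (0.97 and 0.99), with 339 above 0.9. AKR1A1 and AKR7A2 thus had more such genes than AKR1B10 and AKR1C3.

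Other genes of the superfamily and of the same chemistry were read from lists. Of 8 further aldo-keto reductase genes, 4 were tested, and 1 passed at 2 weeks of CSC, as higher. Over all tested genes 3.01% were called higher and 2.4% lower. This was KCNAB2, a potassium channel subunit with the aldo-keto reductase fold, at 4.08 ± 0.516 in CSC and 2.66 ± 0.175 in DMSO (SD, n = 3 each; log2 change 0.53 ± 0.14, adjusted p = 0.0460). It passed in 10 of 22 alternatives and not under median-of-ratios or common sum scaling. AKR1E2, a neighbour of the AKR1C genes on chromosome 10, had 7.04 ± 1.31 in CSC and 4.82 ± 0.202 in DMSO (0.49 ± 0.13, adjusted p = 0.0511). The log2 change was -0.53 (adjusted p = 0.150) for KCNAB3 and 0.12 (0.755) for KCNAB1. None of 22 tested carbonyl reductases and other short-chain reductases passed at 2 weeks with all libraries, but 7 passed as higher and 1 as lower without CSC 2 weeks replicate 2. Over all genes, that fit called 1310 higher and 534 lower, against 376 and 300 with all libraries. The closest were DHRS2 (-0.79 ± 0.22, adjusted p = 0.0564) and CBR3, a carbonyl reductase (0.68 ± 0.20, 0.0663), followed by HSD17B7 (0.54, 0.0823) and DCXR, a xylulose reductase (0.61, 0.0904).

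Aldehyde dehydrogenases oxidise the aldehydes that aldo-keto reductases reduce, and 3 of 16 were higher with CSC at 2 weeks and none lower, where 3.01% of all tested genes were called higher and 2.4% lower. Their median log2 change was 0.25. Without 1 library the count ran from 1 (without DMSO 2 weeks replicate 3) to 4. ALDH3A1 averaged 471 ± 73.2 in CSC and 215 ± 22.5 in DMSO (SD, n = 3 each; 1.13 ± 0.29, adjusted p = 0.0405). It passed in 12 of 23 alternatives. ALDH3A2, a fatty aldehyde enzyme, changed by 0.61 ± 0.12 (adjusted p = 0.0105). ALDH1A3, which makes retinoic acid, changed by 0.89 ± 0.12 at 2 weeks (0.00116) and by 1.02 ± 0.13 at 48 hours (0.00617). ALDH1A1 was far higher in level, at 1565 ± 110 in CSC and 2180 ± 156 in DMSO at 2 weeks, and did not pass (-0.48 ± 0.14, 0.0694). It passed as lower under, among other settings, median-of-ratios scaling, common sum scaling and quantile normalization. In the sorbitol pathway, SORD, which acts after AKR1B1, rose by 0.58 ± 0.12 (adjusted p = 0.0150), while KHK (0.22, 0.354) and ALDOA (0.23, 0.355), which handle fructose further on, did not pass. SORD did not pass without DMSO 2 weeks replicate 2 or 3 or CSC 2 weeks replicate 1 or 3, and passed in 7 of 11 fits that left out 1 library.

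Of 35 other known NRF2 target genes, 8 were higher with CSC at 2 weeks and none lower, where 3.01% of all tested genes were called higher and 2.4% lower. Their median log2 change was 0.39, against 0.22 for the members and 0.09 for all genes. With quantile normalization those medians were 0.098, -0.033 and 0.020. Those that passed were NR0B1 (1.28 ± 0.19, adjusted p = 0.00230), SRXN1 (0.62 ± 0.13, 0.0150), GSR (0.54 ± 0.13, 0.0316), FTL (0.73 ± 0.17, 0.0316), FTH1 (0.71 ± 0.18, 0.0359), GCLC (0.57 ± 0.14, 0.0405), GCLM (0.47 ± 0.12, 0.0474) and ALDH3A1. The count was 1 without any of 4 libraries, namely DMSO 2 weeks replicates 2 and 3 and CSC 2 weeks replicates 1 and 3. It was 5 higher and 1 lower under each of the 3 other scalings. NQO1, the usual reporter of NRF2, had 436 ± 59.5 in CSC and 325 ± 28.5 in DMSO and did not pass (0.42 ± 0.14, 0.0909). Of 8 NRF2 regulators only MAFK passed, as lower (-1.09 ± 0.22, 0.0143), with a log2 change of 0.26 ± 0.17 (0.358) for NFE2L2, which encodes NRF2, and 0.41 ± 0.12 (0.0694) for KEAP1. MAFG (0.31, 0.178) and SQSTM1 (0.33, 0.205) did not pass either. FTH1, GCLC, GCLM, NQO1 and NFE2L2, like CYP1A1 below, were named after their values were seen. At 48 hours none of the NRF2 target genes or regulators passed. At 2 weeks against 48 hours of CSC, 21 of the 35 targets were higher, where 12.3% of all tested genes were, a count of 1 without CSC 48 hours replicate 2 or CSC 2 weeks replicate 1, and of 4, 1 and 0 under the 3 other scalings.

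Of 9 tested genes of polycyclic hydrocarbon activation and its receptor, 4 were higher and 1 lower with CSC at 2 weeks, and 2 were higher at 48 hours. Over all genes, 3.01% were called higher and 2.4% lower at 2 weeks, and 0.288% in either direction at 48 hours. CYP1B1, the P450 upstream of the dihydrodiols that AKR1C enzymes oxidise, averaged 61.8 ± 9.34 in CSC and 11.4 ± 1.34 in DMSO at 2 weeks (SD, n = 3 each; 2.38 ± 0.26, adjusted p = 3.04e-04). CYP1A1 averaged 1.71 ± 0.256 in CSC and 0.103 ± 0.0991 in DMSO (1.88 ± 0.36, 0.0103). TIPARP, which restrains the aryl hydrocarbon receptor, changed by 1.93 ± 0.13 (7.18e-06), AHRR, the receptor's repressor, by 1.59 ± 0.24 (0.00231) and the receptor gene AHR by -0.67 ± 0.11 (0.00411). At 48 hours CYP1B1 (2.71 ± 0.29, 0.00103) and TIPARP (2.23 ± 0.15, 1.44e-05) passed. None of the 9 members passed at either time.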

How the data were processed

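RNA-seq of A549 cells was deposited as 1 table per library of FPKM per gene locus, with lower and upper bounds. The authors' reads were aligned with TopHat2 2.0.9 to hg19 after CASAVA 1.7.1a5, per the submitters' processing notes. Not given in the sources used here are the program behind the FPKM, its annotation and its use of strand. Each file holds 25275 lines and 23609 symbols. FPKM was summed over the loci of the 548 symbols at more than 1 locus, and 1 symbol with a failed estimate was left out.

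Genes reaching 1 FPKM in 2 or more libraries (12506) were fitted as log2(FPKM + 0.5) with limma 3.58.1 in R 4.3.3. There was 1 fit of 4 groups with an intensity trend, 2-sided tests and Benjamini-Hochberg adjustment over all genes tested, called at an adjusted p under 0.05. All log2 changes are on that scale, which understates changes of low genes. The test was tried on simulated data first, for CSC against DMSO. Of 50 seeded changes of 1.5-fold it recovered 24 at 2 weeks and 18 at 48 hours. Of 50 seeded changes of 2-fold it recovered 43 and 45. Among unchanged genes 2 were called at 2 weeks and 11 at 48 hours. A member that did not pass may therefore still have changed by 1.5-fold. Sequences were handled with Python 3.11.15 and Biopython 1.88 and figures drawn with matplotlib 3.10.9. Depth in reads is unknown, so no counting error is given.

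All 9 members are reported whatever their values. From each other list up to 4 tested genes with the smallest p in either comparison of CSC with DMSO are named, and for the highest member of each subfamily the 3 genes with the highest Pearson correlation. Members and lists were chosen with earlier results of these data known. Alternatives were other pseudocounts, filters and scalings, no trend, a replicate block, a fit of the compared libraries alone, the highest locus per symbol, a stricter threshold and leaving out each library.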

Additional observations from a re-analysis of the deposited data

How the results depend on the processing

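Each result was recomputed under 23 alternatives (22 for the difference of the CSC effects). The count of members passing stayed at 0 for CSC against DMSO at 48 hours, for the difference of CSC effects and for 2 weeks against 48 hours in DMSO. For CSC against DMSO at 2 weeks it was 1 with the replicate block (AKR1A1, adjusted p = 0.0394) and 0 otherwise. For 2 weeks against 48 hours in CSC, 5 members passed. The count was 0 without the filter, with each of the 3 other scalings, when the 6 libraries compared were fitted alone and at an adjusted p under 0.01, and 3 without the trend. Leaving out 1 library gave 0 to 5. The cause was not tested. The labels do not say that replicate numbers pair the libraries. Of 15 same-numbered pairs, which correlated between -0.20 and 0.31 (median 0.046), 5 were over 0.1, including all 3 pairs of replicate 1. Of 30 pairs with different numbers, between -0.22 and 0.28 (median -0.043), 6 were over 0.1. The 2 DMSO 48 hours libraries have opposite deviations, so their correlations are not independent. As a hint from the data, 7 of 11 libraries correlated best with their own number. Not every same-numbered pair was over 0.1, and the libraries were taken as unpaired. A cut-off of 0.1 cannot decide whether they were. In replicate 1, all 9 members lay above their group mean in CSC 48 hours and in CSC 2 weeks, and 8 in DMSO 2 weeks. DMSO 48 hours has no replicate 1, so comparisons with it are unbalanced in replicate number. With the replicate block 6 members passed for 2 weeks against 48 hours in CSC, AKR7A2 being the added one (adjusted p = 0.0219).

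Several log2 changes that did not pass turned sign. At 2 weeks of CSC, AKR1C1 was -0.087, -0.13 and -0.12 with median-of-ratios scaling, a common sum and quantile normalization. With quantile normalization AKR1B1 was -0.033, AKR1B10 -0.074, AKR1C3 -0.21 and ALDOA -0.12. At 48 hours AKR1A1 was -0.0011 with median-of-ratios scaling, and with the replicate block AKR1A1 was -0.10 and AKR7A2 -0.043. The AKR1B15 difference was 0.00041 with a pseudocount of 1 and 0.082 with the block. In DMSO over time AKR1B10 was -0.038, -0.064 and -0.099 with the 3 scalings and -0.032 with the block. In CSC over time AKR1B1 was -0.048, -0.18 and -0.31 with the 3 scalings. AKR1B15 was -0.11 with a common sum and -0.020 with quantile normalization, and AKR1B10 -0.073 with the last.

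Leaving out 1 library turned others. At 2 weeks of CSC the range was -0.091 to 0.081 for AKR1C1, -0.043 to 0.25 for AKR1C4 and -0.038 to 0.34 for KCNAB1. At 48 hours it was -0.12 to 0.10 for AKR1A1, -0.39 to 0.10 for AKR1B10, -0.0089 to 0.55 for AKR1B15 and -0.054 to 0.20 for AKR7A2. For the difference it was -0.28 to 0.28 for AKR1B15. In DMSO over time it was -0.19 to 0.30 for AKR1B10, -0.088 to 0.47 for AKR1B15, -0.066 to 0.62 for AKR1C1 and -0.074 to 0.62 for AKR1C4. In CSC over time it was -0.023 to 0.28 for AKR1B1. Over all genes, the number called without 1 library ranged from 73 to 1310 higher and 132 to 534 lower at 2 weeks of CSC (376 and 300 with all libraries). In CSC over time it ranged from 114 to 2452 higher and 30 to 175 lower (1536 and 172). The number of libraries and the spread between them limit these comparisons.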
